A study of Mus musculus with 4 samples.

Results

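The genes described here are those of the unfolded protein response of the endoplasmic reticulum (ER) and of the heat shock response, the programmes that adjust a cell's capacity to fold proteins. They were chosen by symbol, as a list of 40 genes, and 38 of them were represented on the arrays by a probe set with 1 gene symbol, out of 18193 genes in all. Hsp90ab1 and Hsf1 had no such probe set in the annotation used and were not analysed here. The series measured mouse primary intestinal epithelial cells, grown from isolated crypts on fibronectin, on 1 array per group. One group received IL-17A (50 ng/ml), a T cell cytokine, together with FGF2 (5 ng/ml), a fibroblast growth factor. Another received FGF2 alone and another IL-17A alone, each for 6 h, and the last was left untreated. Strain, sex, age and the number of mice pooled were not given in the sources used here. With 1 array per group there was no replicate error, the number of arrays limited the precision, and no test or p-value was computed: the differences given are between single arrays.

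In the unfolded protein response, unfolded proteins in the ER are sensed by the membrane proteins IRE1 (gene Ern1), ATF6 and PERK. IRE1 splices the mRNA of Xbp1 into a form encoding a transcription factor, ATF6 is cut to release another, and PERK slows translation while favouring that of ATF4. Their targets are chaperones, disulfide isomerases and degradation factors for the ER branch, and amino acid and cell death genes for the ATF4 branch. In the heat shock response, unfolded cytosolic proteins release heat shock factor, which binds its elements in the promoters of HSP70, HSP90 and HSP40 genes. In the intestine, goblet and Paneth cells, which secrete large amounts of protein, depend on the ER branch, and loss of Xbp1 in mouse intestinal epithelium gives spontaneous inflammation. The probe sets do not separate spliced from unspliced Xbp1.

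Signals are the deposited MAS5 values on a linear scale, in arbitrary units of which the authors' scaling set the trimmed mean to 500 on each array. Signals of different probe sets were not set against each other. A gene is called measured where its brightest probe set was above 89.8, the median of all signals, on at least 1 array. All 38 genes were above this floor on all 4 arrays. Of the 12258 measured genes, those of mean log2 signal over 12 had a yardstick SD of a log2 ratio of 0.09 and those between 10 and 12 one of 0.13, taken from the interaction of the factors over all such genes. This yardstick contains true interaction and is no test.

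The labelled cell type was borne out by 7 of 7 epithelial markers above the floor on every array, with Epcam at 18315, 17806, 16949 and 16578 on the arrays with both factors, FGF2, IL-17A and no treatment. These markers differed in direction: 4 of 7 were above untreated on each stimulated array. Vil1 had 2655, 3417, 3630 and 4297 in the same order, and Cdx2 871, 816, 860 and 1093. Markers of other cells were also present. Summed over 6 fibroblast markers, all above the floor on every array, the signal was 43474 with both factors, 41016 with FGF2, 56386 with IL-17A and 52918 untreated. For 5 endothelial markers, also all above the floor, the sums were 7677, 7052, 4555 and 4695 in that order. For 7 goblet markers the sums were 33415, 34154, 38574 and 42808, with 6, 6, 7 and 7 of them above the floor. For 5 enterocyte markers they were 6570, 13732, 9150 and 18057, with 4 above the floor on every array. No marker of these lists was at 0. Not all fibroblast markers went with their sum: 2 of 6 were above untreated with both factors and 1 with FGF2. Dcn had log2 ratios of 0.54 and 0.26 there, and Lum of 0.37 and −0.29. Fibroblast and endothelial sums thus differed between the arrays with and without FGF2, as did many of the values below, and their part in these was not tested. In bulk RNA, fewer cells of a type and less RNA per cell cannot be told apart.

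With FGF2, alone or with IL-17A, most chaperone and stress genes were slightly higher in their brightest probe sets than in untreated cells, and 1 of them, Hsph1, was more than 1.5-fold higher. The median log2 ratio over the 38 genes was 0.19 for both factors, 0.16 for FGF2 and 0.05 for IL-17A against untreated cells, against medians over all measured genes of 0.00, −0.01 and −0.01. Under quantile normalization, which also evens out the bright end of the arrays, the medians of the 38 were 0.076, 0.14 and 0.019. Signal was above untreated in 30 genes with both factors, 33 with FGF2 and 28 with IL-17A. Of all measured genes, 48.2%, 46.1% and 45.1% were above untreated in these comparisons. Bright genes lay higher in general: among the 1103 measured genes of mean log2 signal over 12, 72.3%, 62.1% and 67.9% were above untreated, and of the 16 members in that range 15, 15 and 15 were. Among genes between 10 and 12, 55.3%, 53.6% and 45.3% were above untreated in the same order, and of 20 members 14, 17 and 12 were. The untreated array gave the lowest of the 4 signals in 27 of the 38 genes, which it did in 24.6% of all measured genes.

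**Figure D1:**
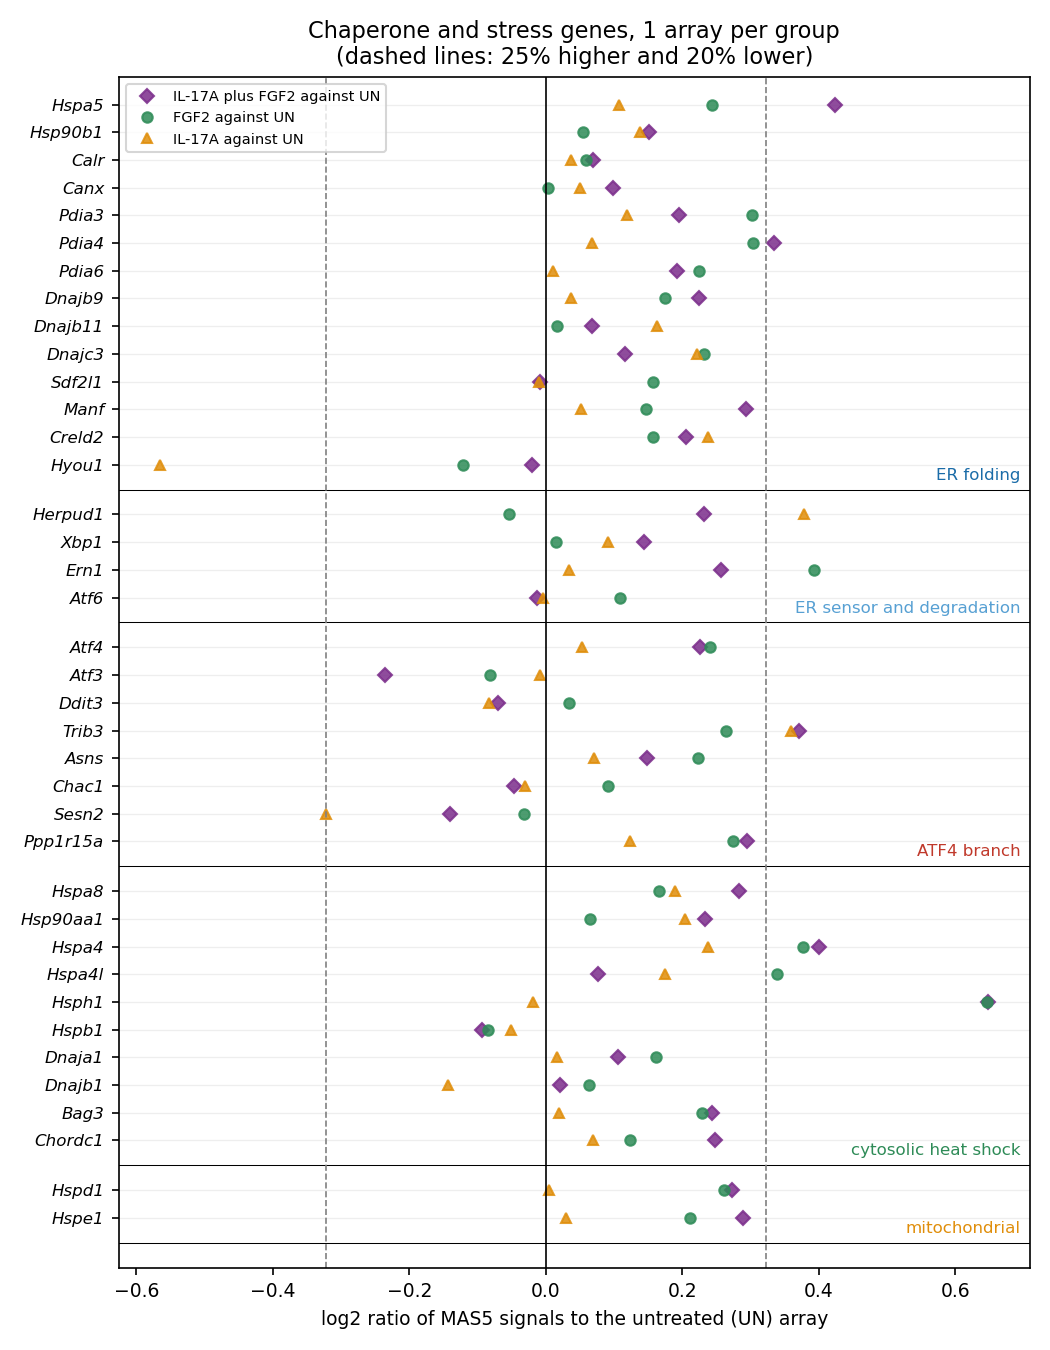
Log2 ratio of the signal to the untreated array (x axis) for each of the 38 genes (rows, by class) on the arrays with IL-17A plus FGF2 (diamonds), FGF2 (circles) and IL-17A (triangles); dashed lines mark 25% higher and 20% lower and there is 1 array per group. Most diamonds and circles lie right of 0, Hsph1 stands furthest right at 0.65 for both, and Hyou1 with IL-17A stands furthest left at −0.56.

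The differences were small. At least 25% higher than untreated were 5 genes with both factors, 4 with FGF2 and 2 with IL-17A, against 10.6%, 8.81% and 5.8% of all measured genes. At least 20% lower were 0, 0 and 2 of the 38, against 16.2%, 14.6% and 8.58%. At 1.5-fold, counted in either direction, 1, 1 and 0 members passed, against 9.86%, 7.16% and 3.39% of measured genes. The share of members past 1.5-fold was thus below that of all measured genes in each of the 3 comparisons. Bright genes varied less, however: the yardstick SD was 0.29 for measured genes of mean log2 signal under 8 and 0.09 for those over 12. Of the 38 members, 20 lay between 10 and 12 and 16 over 12. Shares past a fold threshold among genes of like signal were not computed, so the lower share cannot be read as a trait of the members. No member (0 of 38) differed 2-fold in any comparison.

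Of the cytosolic chaperones, Hsph1, which encodes HSP105, a nucleotide exchange factor for HSP70, had the clearest pattern. Its signal was 3158 with both factors and 3153 with FGF2, against 1990 with IL-17A and 2015 in untreated cells. The arrays with FGF2 did not overlap those without it. The share of all measured genes separated in this way, in either direction, was not computed. Such a separation, here and in the genes below, thus cannot be read as a trait of the genes named. A wider group held genes higher with FGF2 than untreated and with both factors than with IL-17A. It held 31.6% of all measured genes and 44.4% of those of mean log2 signal over 10. Hsph1 was 1.57-fold higher with both factors than in untreated cells and 1.59-fold higher than with IL-17A alone, and FGF2 alone gave 1.57-fold. IL-17A alone was at 0.99 of untreated. The other Hsph1 probe set, also above the floor on all arrays, had 1703 and 1956 on the arrays with FGF2, against 1291 with IL-17A and 1098 untreated, log2 ratios to untreated of 0.63, 0.83 and 0.23. By their design class both probe sets can detect more than 1 transcript, so no value of Hsph1 remains when such probe sets are left out.

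The mitochondrial chaperonin pair, Hspd1 (HSP60) and its cap Hspe1 (HSP10), also separated by FGF2. Hspd1 had 8008 with both factors and 7944 with FGF2, against 6651 with IL-17A and 6627 untreated. Hspe1 had 5199 and 4927 on the arrays with FGF2, against 4345 and 4255 on those without. The log2 ratios to untreated were 0.27 and 0.26 for Hspd1 and 0.29 and 0.21 for Hspe1, with both factors and with FGF2 alone. With IL-17A alone they were 0.01 and 0.03. Neither gene was 25% higher in its brightest probe set, where the differences with FGF2 were over 2 times the yardstick SD of 0.09. The other Hspe1 probe set had log2 ratios to untreated of 0.19, 0.36 and 0.05 with both factors, FGF2 and IL-17A. With FGF2 alone that probe set was thus over 25% higher.

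Bag3, a cochaperone that links HSP70 to selective autophagy, and Chordc1, an HSP90 cochaperone, followed at lower size. Bag3 had 2608 with both factors and 2582 with FGF2, against 2233 with IL-17A and 2203 untreated. Chordc1 had 4227 and 3878, against 3734 and 3560 in the same order. Their arrays with FGF2 again lay above those without. So did those of other members with smaller differences. Calr was 1 of these, with log2 ratios to untreated of 0.07 with both factors and 0.06 with FGF2 in its brightest probe set. For Chordc1 the log2 ratio of FGF2 alone to untreated, 0.12, was under the yardstick SD of 0.13.

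**Figure D2:**
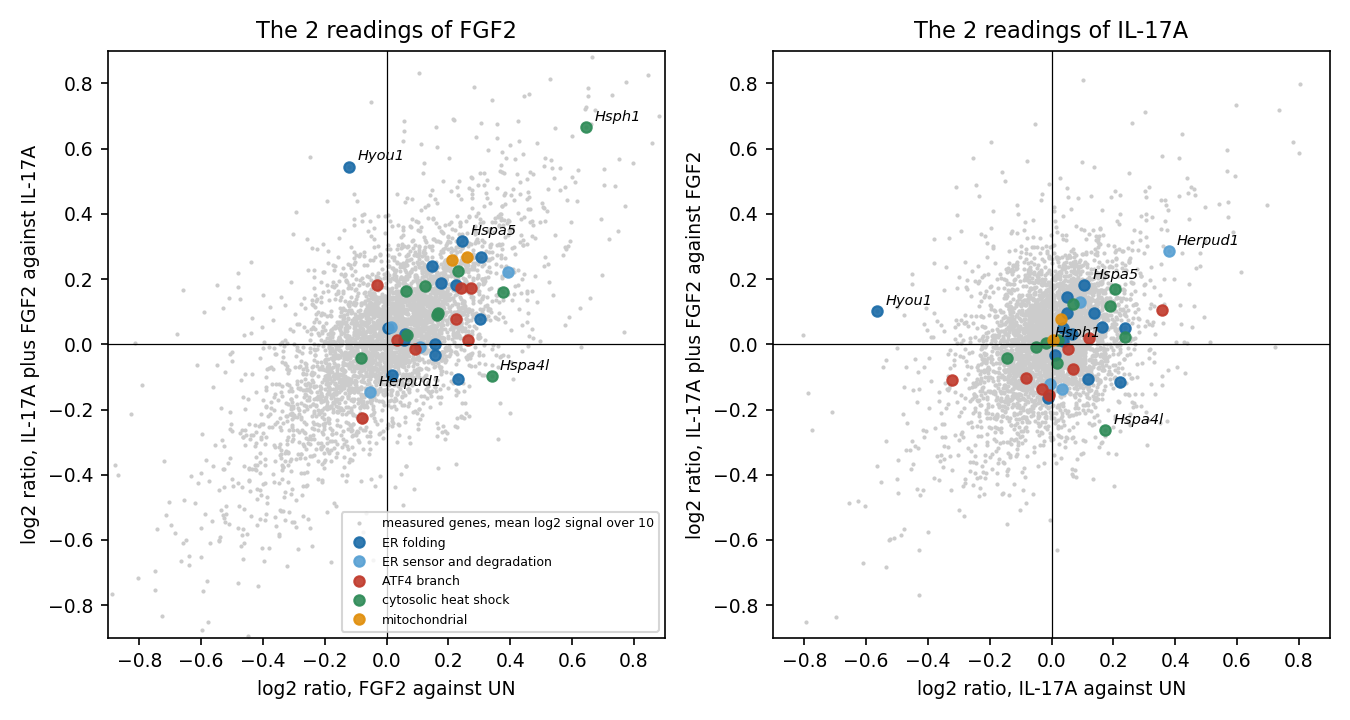
Each factor's log2 ratio in separate array pairs: on the left FGF2 against untreated (x) and both factors against IL-17A (y), on the right IL-17A against untreated (x) and both factors against FGF2 (y); coloured points are the 38 genes by class, grey points the measured genes of mean log2 signal over 10, and genes beyond the axes are not drawn. In the brightest probe sets drawn, Hsph1 lies at 0.65 and 0.67 for FGF2, and Herpud1 at 0.38 and 0.29 for IL-17A. The other Herpud1 probe set was at 0.48 and −0.11.

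Among other cytosolic chaperones the pattern varied. In their brightest probe sets Hspa4, Dnaja1 and Dnajb1 also had both arrays with FGF2 above those without. Hspa8, Hsp90aa1 and Hspa4l did not, and Hspb1 had them below. Hspa8, the constitutive HSP70, had 24593 with both factors, 22668 with FGF2 and 23032 with IL-17A, against 20202 untreated. Each stimulated array was above the untreated one, by log2 ratios of 0.28, 0.17 and 0.19, and this probe set can detect related transcripts. Of its other bright probe sets, one gave 0.14, 0.09 and 0.07 and another 0.04, −0.15 and 0.09, so that FGF2 was below untreated in the last. Hsp90aa1, the inducible HSP90, had 18009 with both factors and 17638 with IL-17A, against 16018 with FGF2 and 15314 untreated. That order was not shared by its other bright probe sets: one had 8961 with both factors, 10424 with FGF2 and 9668 with IL-17A, against 8075 untreated, and another 6945, 7020 and 7692, against 5938. In all 3 each stimulated array was above untreated. Hspa4, another HSP110 family member, was 1.32-fold, 1.30-fold and 1.18-fold above untreated with both factors, FGF2 and IL-17A, with signals of 7209, 7098, 6446 and 5465. Its 2 other probe sets above the floor on every array differed from it and from each other: one had 1322, 1231 and 1245 on the stimulated arrays, against 1398 untreated, and a dimmer one 335, 538 and 396, against 395. Hspa4l, of the same family, was highest with FGF2 alone (2013), with 1678 for both factors, 1795 for IL-17A and 1591 untreated. Dnaja1, an HSP40, had log2 ratios of 0.11, 0.16 and 0.02. Dnajb1, the HSP40 most used as a heat shock marker, had 2222, 2289 and 1983, against 2190 untreated, and the small heat shock protein gene Hspb1 had 7580, 7631 and 7808, against 8089. In these probe sets Dnajb1 and Hspb1 had log2 ratios between −0.14 and 0.06. Another Dnajb1 probe set was at 0.32 with FGF2, 0.02 with both factors and 0.04 with IL-17A, another Hspb1 probe set at −0.24 with both factors, and the 2 other probe sets of Dnaja1 at −0.57 and −0.01 with FGF2. Over the 10 cytosolic genes the median log2 ratio was 0.24 for both factors, 0.16 for FGF2 and 0.04 for IL-17A. Under quantile normalization these medians kept their sign, at 0.05, 0.13 and 0.03.

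**Figure D3:**
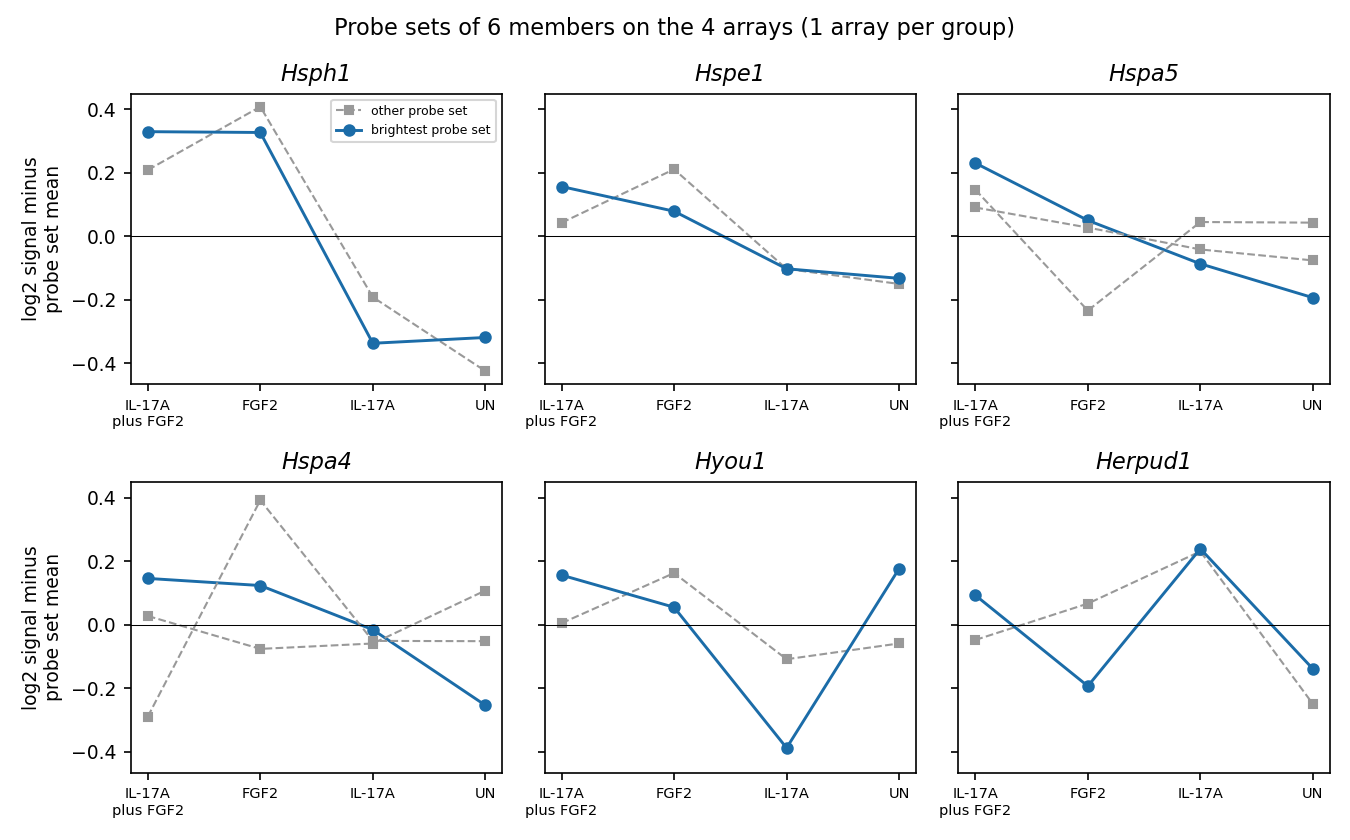
Log2 signal minus the probe set's own mean (y axis) on the arrays with IL-17A plus FGF2, FGF2, IL-17A and no treatment (x axis) for every probe set of 6 genes that was above the floor on all arrays; solid lines are the brightest probe set, dashed lines the others, and lines join values of 1 probe set. Both probe sets of Hsph1 and of Hspe1 are higher on the arrays with FGF2, both of Herpud1 are highest with IL-17A alone, and those of Hspa4 and Hyou1 diverge.

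In the ER, Hspa5, which encodes BiP, the HSP70 of the ER lumen that holds the 3 sensors inactive, was stepwise higher. Its signal was 17971 with both factors, 15857 with FGF2 and 14422 with IL-17A, against 13394 untreated. The log2 ratios to untreated were 0.42, 0.24 and 0.11, so that both factors gave 1.34-fold. Another probe set gave 0.17, 0.10 and 0.03, and a dimmer one 0.10, −0.28 and 0.00. Under quantile normalization the brightest probe set gave 0.21 for both factors and 0.01 for IL-17A.

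Pdia4, an ER disulfide isomerase, had 1964 with both factors and 1923 with FGF2, against 1632 with IL-17A and 1557 untreated, and was 1.26-fold higher with both factors. Pdia6, another isomerase, had 4148 and 4243, against 3660 and 3632, likewise with no overlap of the arrays with FGF2 and those without. Dnajb9 (ERdj4), a BiP cochaperone that restrains IRE1, had 4413 and 4262, against 3874 and 3776. Manf, a secreted ER stress factor, had 9052 and 8183, against 7660 and 7390. Pdia3, which folds glycoproteins with calnexin and calreticulin, was highest with FGF2 alone (8297), with 7704 for both factors, 7308 for IL-17A and 6729 untreated.

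The lectin chaperones hardly differed. Calr (calreticulin) had 9650, 9581 and 9441 with both factors, FGF2 and IL-17A, against 9200 untreated, and Canx (calnexin) 9561, 8952 and 9243, against 8931. Hsp90b1 (GRP94), the HSP90 of the ER, was higher with both factors (12789) and IL-17A (12680) than with FGF2 (11966) and untreated (11521). Its other probe set had another order, with 3244 for both factors, 3786 for FGF2 and 3930 for IL-17A, against 2933 untreated. The other probe sets of Calr were below untreated with FGF2, at log2 ratios of −0.09 and −0.06. Dnajb11, Dnajc3, Sdf2l1 and Creld2, cochaperones or partners of BiP and of the disulfide isomerases, had log2 ratios to untreated between −0.01 and 0.24 over the 3 stimulated arrays in their brightest probe sets. All 4 other probe sets of Dnajc3 went the other way with FGF2, from −0.47 to −0.11, and with both factors, from −0.74 to −0.16. Hyou1, the ER member of the HSP110 family, stood apart: its signal was 1468 with IL-17A alone, against 2141 with both factors, 1996 with FGF2 and 2172 untreated. That is 1.48-fold lower with IL-17A alone than untreated. The probe set can detect related transcripts, and another, dimmer probe set of Hyou1 gave a log2 ratio of −0.05. Over the 14 ER folding genes the median log2 ratio was 0.17 for both factors, 0.16 for FGF2 and 0.06 for IL-17A, and 12, 13 and 12 were above untreated.

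Of the sensors and the degradation gene, Herpud1, which recruits the ER degradation complex, had its highest signal with IL-17A alone. In its brightest probe set it had 3045 with both factors and 3370 with IL-17A, against 2497 with FGF2 and 2593 untreated. There the arrays with IL-17A lay above those without. IL-17A alone gave 1.30-fold over untreated, and both factors gave 1.22-fold over FGF2 alone. The other probe set of Herpud1 had log2 ratios to untreated of 0.20, 0.32 and 0.48 for both factors, FGF2 and IL-17A. In that probe set FGF2 alone was also above untreated. Both factors (1834) lay below FGF2 alone (1985), a log2 ratio of −0.11, so the arrays with and without IL-17A overlapped. Ern1 had 1571 with both factors and 1727 with FGF2, against 1346 with IL-17A and 1315 untreated, or 1.31-fold higher with FGF2 alone, while the mean over all its probe sets, the others being dim, gave a log2 ratio of −0.26 for FGF2. Xbp1 had 10360, 9472 and 9988, against 9378 untreated, and its next brightest probe set 7322, 7343 and 7832, against 7354. Atf6 had 1112, 1209 and 1119, against 1122, and its dimmest probe set was at −0.29 with both factors and −0.40 with FGF2.

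In the ATF4 branch the genes differed in direction. Atf4 itself had 9773 with both factors and 9871 with FGF2, against 8670 with IL-17A and 8354 untreated, log2 ratios to untreated of 0.23, 0.24 and 0.05. Its other bright probe set, which can detect related transcripts, gave 0.03, −0.07 and 0.13, with IL-17A alone the highest. Ppp1r15a (GADD34), the phosphatase subunit that restores translation, had 1574 and 1552, against 1398 and 1284, and Asns (asparagine synthetase) 7705 and 8114, against 7300 and 6951. Trib3, a pseudokinase that ATF4 and CHOP induce, was 1.29-fold, 1.20-fold and 1.28-fold higher with both factors, FGF2 and IL-17A, with signals of 907, 842, 899 and 701. Its other probe set gave log2 ratios of −0.01, 0.08 and −0.08. Ddit3 (CHOP), the transcription factor tied to cell death, had 1145, 1230 and 1135, against 1202 untreated. Chac1, a glutathione-degrading enzyme and ATF4 target, had 1520, 1671 and 1536, against 1569. Atf3 was lowest with both factors, at 1386, with 1542 for FGF2, 1622 for IL-17A and 1631 untreated. Sesn2 (sestrin 2) had 376, 406 and 332, against 415, and was at 0.80 of untreated with IL-17A, where a dimmer probe set gave a log2 ratio of −0.04. The branch median was 0.05, 0.16 and 0.02, and 4, 6 and 4 of its 8 genes were above untreated. Ddit3, Chac1 and Atf3 had log2 ratios between −0.24 and 0.09 on the stimulated arrays.

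The 4 groups give each factor's difference a second time, in another pair of arrays, with no array shared. For FGF2, alone against untreated and added to IL-17A, 27 of 38 genes were higher in both pairs and 3 lower in both. Over all measured genes, 31.6% were higher in both and 32.9% lower in both, and over those of mean log2 signal over 10, 44.4% and 28.7%. By class, 10 of 14 ER folding genes, 2 of 4 sensor and degradation genes, 5 of 8 ATF4 branch genes, 8 of 10 cytosolic genes and 2 of 2 mitochondrial genes were higher in both. Hsph1 was the only member at least 25% higher in both pairs, as were 3.73% of all measured genes. For IL-17A, alone against untreated and added to FGF2, 20 genes were higher in both pairs and 8 lower in both, against 25.8% and 28.4% of all measured genes and 33.8% and 27.4% of those of mean log2 signal over 10. In the ATF4 branch 2 were higher and 4 lower.

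Set against IL-17A alone, both factors gave a median log2 ratio of 0.08, with 29 of 38 genes above 0, against 49.6% of all measured genes. By signal, 15 of 16 members over log2 12 were above 0, against 65.7% of such genes, and 12 of 20 between 10 and 12, against 58.0%. Quantile normalization gave a median of 0.023 and 24 genes. At least 25% higher were 2 genes, Hsph1 and Hyou1, against 9.72%, and 0 were at least 20% lower, against 12.9%. At 1.5-fold there was Hsph1 alone, 1 of 38, against 6.89%. The Hyou1 value, 1.46-fold, came with its low signal on the IL-17A array. Set against FGF2 alone, both factors gave a median of 0.01, with 22 of 38 above 0, against 49% of measured genes. This was near the background of like signal: 11 of 16 over log2 12, against 67.5%, and 10 of 20 between 10 and 12, against 51.3%. Quantile normalization gave a median of −0.015 and 17 genes. No member, 0 of 38, was 25% higher or 20% lower in this pair, against 7.37% and 7.82%, and so 0 were past 1.5-fold, against 3.88%. The highest value in this pair was that of Herpud1 (log2 0.29, and −0.11 in its other probe set) and the lowest that of Hspa4l (−0.26).

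The interaction, the log2 signal with both factors minus IL-17A minus FGF2 plus untreated, had a median of −0.04 over the 38 genes and of 0.02 over all measured genes. It ranged from −0.44 in Hspa4l to 0.67 in Hyou1. Hyou1 was the only member past the 99th percentile of absolute interaction among measured genes of like signal, 0.56. For Hsph1 (0.02), Hspd1 (0.01), Hspe1 (0.05) and Hspa5 (0.07) the combined array lay near the sum of both single differences.

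Agreement between probe sets bears on all these values. Of 41 further probe sets of 23 members that were above the floor on every array, 24 had the sign of the brightest probe set for both factors against untreated, 21 for FGF2 and 25 for IL-17A. Over all genes the shares were 64.8%, 60.5% and 57.4% of 7537 further probe sets. Small ratios of single members thus often differed between probe sets.

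The promoters of some members hold the elements for which these responses are known, and whether these bear on the differences between arrays was not tested. RefSeq promoter windows (build GRCm38.p6, from 250 bases before to 50 bases after an annotated start) were matched by symbol for 33 of the 38 measured genes, all but Manf, Hspa8, Atf6, Hyou1 and Hsp90aa1. They were searched on either strand for a heat shock element (HSE: GAA, TTC and GAA, with 2 free bases between neighbours), the ER stress element (ERSE: CCAAT and CCACG, with 9 free bases between them) and the ATF4 site TGATGNAA (CARE). Overlapping matches of 1 motif were all kept. Counted by gene, as for the members below, the HSE was found in 0.662% of all 27025 genes with a window. The ERSE was found in 0.137% and the CARE in 4.51%. Among members the HSE was in windows of 2 of 8 cytosolic genes with a window, Hsph1 and Chordc1, and of both mitochondrial genes, Hspd1 and Hspe1. Bag3, Hspa4, Hspa4l, Dnaja1, Dnajb1 and Hspb1 had no match in their windows. Of these, Bag3, Hspa4, Dnaja1 and Dnajb1 also had both arrays with FGF2 above those without, in their brightest probe sets. The 3 windows below show these elements in capitals, in genes whose arrays with FGF2 lay above those without. They are Hsph1 at chr5:149636266-149636565 (minus strand), Chordc1 at chr9:18292017-18292316 (plus strand) and Hspe1 at chr1:55087898-55088197 (plus strand).
Hsph1: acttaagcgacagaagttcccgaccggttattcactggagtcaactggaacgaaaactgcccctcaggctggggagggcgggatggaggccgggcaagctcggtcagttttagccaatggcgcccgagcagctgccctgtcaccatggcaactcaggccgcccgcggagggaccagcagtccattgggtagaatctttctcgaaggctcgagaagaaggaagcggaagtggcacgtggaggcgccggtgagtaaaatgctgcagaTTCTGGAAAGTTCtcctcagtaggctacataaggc
Chordc1: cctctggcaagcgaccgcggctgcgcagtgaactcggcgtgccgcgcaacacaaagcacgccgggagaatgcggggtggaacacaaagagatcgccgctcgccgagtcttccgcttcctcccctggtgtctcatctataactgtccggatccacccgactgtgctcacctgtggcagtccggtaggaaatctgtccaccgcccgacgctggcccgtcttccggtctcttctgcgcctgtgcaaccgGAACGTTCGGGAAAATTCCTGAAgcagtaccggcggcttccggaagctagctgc
Hspe1: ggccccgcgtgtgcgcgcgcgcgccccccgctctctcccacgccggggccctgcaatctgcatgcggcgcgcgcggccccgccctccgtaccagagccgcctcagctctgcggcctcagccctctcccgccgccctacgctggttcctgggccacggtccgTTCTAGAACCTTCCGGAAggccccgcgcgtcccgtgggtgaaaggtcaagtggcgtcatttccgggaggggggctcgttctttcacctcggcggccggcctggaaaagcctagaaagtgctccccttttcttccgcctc
In Hsph1 the match lies after the annotated start, at bases 15 to 27 of this window's start site, and another window of the gene holds the same match. Hspd1 and Hspe1 are read in opposite directions from 1 region, and the matches in their overlapping windows are the same bases. A match is a description of letters, not of a bound site.

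The ERSE was found in 7 of the 12 ER folding genes with a window: Hspa5, Hsp90b1, Calr, Canx, Pdia6, Dnajc3 and Creld2. It was in 0 windows of the other classes. The windows of Hspa5 (chr2:34771840-34772139, plus strand) and Hsp90b1 (chr10:86705395-86705694, minus strand) are shown because the pair share the element and differ in their brightest probe sets. There the log2 ratios for FGF2 against untreated were 0.24 and 0.05. Other probe sets had the reverse order, with 0.37 for Hsp90b1 and 0.10 and −0.28 for Hspa5, so the pair cannot be said to differ.
Hspa5: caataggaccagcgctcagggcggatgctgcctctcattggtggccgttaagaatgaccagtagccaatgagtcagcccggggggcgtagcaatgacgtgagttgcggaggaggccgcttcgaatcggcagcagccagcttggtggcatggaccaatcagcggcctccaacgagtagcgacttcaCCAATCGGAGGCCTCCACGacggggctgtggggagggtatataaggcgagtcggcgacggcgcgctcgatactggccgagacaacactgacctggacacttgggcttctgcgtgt
Hsp90b1: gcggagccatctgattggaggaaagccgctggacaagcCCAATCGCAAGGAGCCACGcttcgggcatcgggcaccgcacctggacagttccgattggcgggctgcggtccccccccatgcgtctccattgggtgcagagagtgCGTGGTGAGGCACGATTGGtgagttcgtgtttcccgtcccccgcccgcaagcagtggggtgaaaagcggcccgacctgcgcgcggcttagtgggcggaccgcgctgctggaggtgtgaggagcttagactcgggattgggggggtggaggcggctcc
Hsp90b1 holds 2 matches, on opposite strands. In brightest probe sets the log2 ratios of the 7 genes with FGF2 ran from 0.00 in Canx to 0.24 in Hspa5. Pdia3 and Pdia4, with no match in their windows, were at 0.30.

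The CARE was found in Atf3, Chac1, Trib3 and Asns, 4 of 8 ATF4 branch genes, and in Herpud1. Asns (chr6:7693160-7693459, minus strand) is shown, with the match in capitals.
Asns: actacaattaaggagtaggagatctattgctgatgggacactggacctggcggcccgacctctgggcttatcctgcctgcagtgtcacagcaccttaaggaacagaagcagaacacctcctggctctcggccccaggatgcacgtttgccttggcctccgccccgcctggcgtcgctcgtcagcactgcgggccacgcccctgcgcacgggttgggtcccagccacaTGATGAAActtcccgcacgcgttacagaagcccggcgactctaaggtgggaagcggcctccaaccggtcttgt
The genes with a match did not share a direction: Asns and Trib3 had log2 ratios of 0.15 and 0.37 for both factors against untreated, and Atf3 and Chac1 of −0.24 and −0.05.

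**Figure D4:**
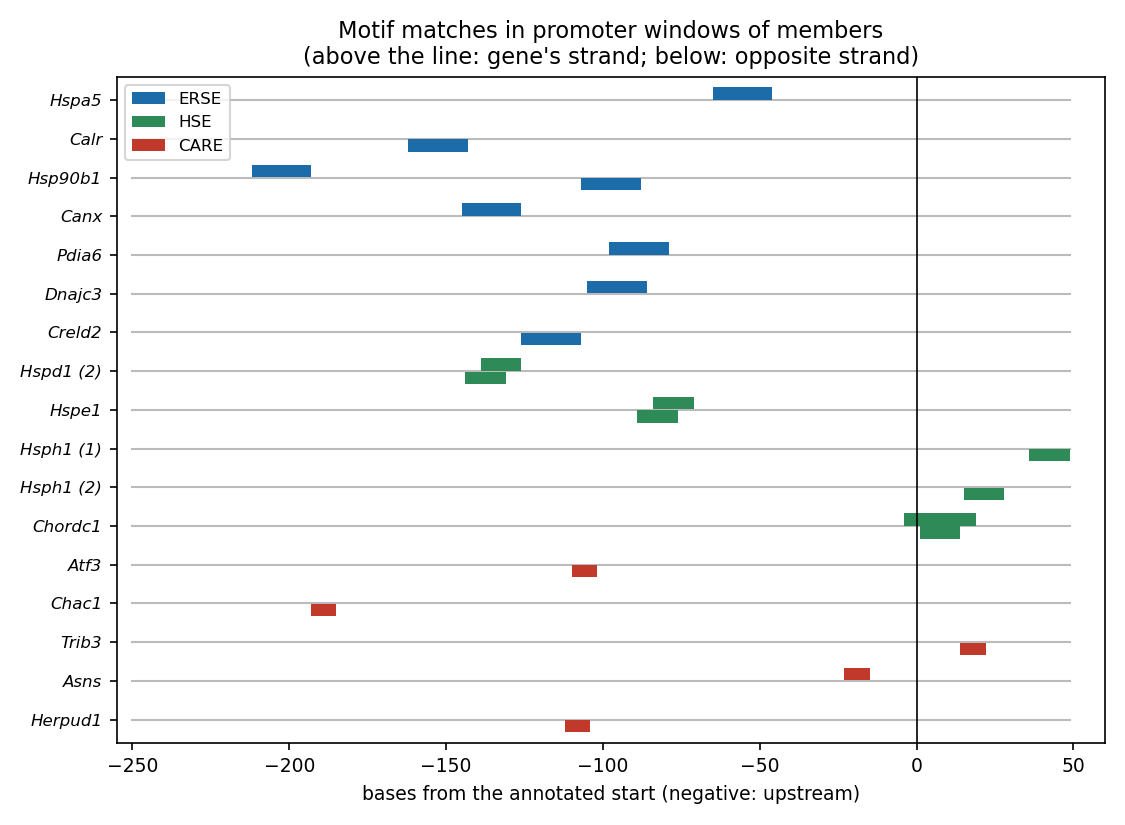
Positions of motif matches (x axis, bases from the annotated start, negative upstream) in promoter windows of members (rows), with bars above the line for the gene's own strand and below it for the opposite strand; numbers in brackets are windows of genes with several starts. ERSE matches are all upstream of the start in ER folding genes, and HSE matches of Hsph1 and Chordc1 lie around or after it.

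Beyond the 38 genes, 8 lists of other genes of these pathways held 145 entries, of which 133 were measured. Above untreated were 91 with both factors, 84 with FGF2 and 77 with IL-17A, with medians of 0.10, 0.05 and 0.02. Of all measured genes 48.2%, 46.1% and 45.1% were above untreated, and of those of mean log2 signal over 12, 72.3%, 62.1% and 67.9%. These shares bear on the counts of single lists below too, which were not split by signal. The list nearest to the members was that of the TRiC chaperonin, which folds actin and tubulin, and mitochondrial folding factors. Its medians were 0.24, 0.14 and 0.09, and 14, 14 and 12 of its 16 genes were above untreated. Cct4 had 12045 with both factors and 10964 with FGF2, against 9699 with IL-17A and 9720 untreated. Cct2 had 13087 and 12590, against 11130 and 10509, and Cct6a 12162 and 11069, against 11408 and 10089. In the first and second of these the arrays with FGF2 did not overlap those without. Of the ATF4 targets in amino acid supply and tRNA charging, 16, 18 and 12 of 21 were above untreated, with medians of 0.11, 0.11 and 0.02. Slc3a2, the heavy chain of amino acid transporters, had 5283 with both factors and 5323 with FGF2, against 4652 and 4545, while Gars and Nars were within a log2 ratio of 0.06 of untreated. Slc7a11, the light chain that imports cystine, was the 1 gene of the lists more than 1.5-fold above untreated with both factors: it was 2.84-fold higher, with signals of 746, 408 and 384 on the stimulated arrays, against 262. Its other probe set above the floor gave a log2 ratio of 0.73 for both factors.

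Of the other ER lists, ER degradation and translocation genes had medians of 0.08, −0.01 and 0.00 over 21 genes, with Vcp, Sec61b and Ssr3 at 0.32, 0.33 and 0.15 for both factors. ER disulfide and folding enzymes had 0.13, 0.05 and 0.03 over 22, of which 15, 14 and 13 were above untreated, with P4hb at 0.22, Ppib at 0.26 and Stt3a at −0.06 for both factors. Fkbp11, an ER prolyl isomerase, had a log2 ratio of −0.59 with FGF2 (484, against 728 untreated). Agr2, the goblet cell disulfide isomerase, had 70.7 with both factors, 133 with FGF2 and 185 with IL-17A, against 548 untreated, at least 6.11-fold lower with both factors, where the signal was under the floor. The goblet marker sums given above were also lower on these arrays, and their part was not tested. Of 9 ER sensors and transcription factors, Eif2ak3 (PERK), Creb3l2 and Wfs1 had log2 ratios of 0.03, 0.47 and 0.04 for both factors. Creb3l1 had 437 with both factors and 605 with IL-17A, against 257 with FGF2 and 387 untreated, so that it was highest with IL-17A and lowest with FGF2. Creb3l3, a transcription factor of lipid metabolism in liver and small intestine, was 2.39-fold lower with both factors, at 152, with 314 for FGF2, 275 for IL-17A and 364 untreated. The eIF2 kinases and ATF4 partners had medians of 0.06, 0.00 and −0.08 over 11 genes, with Cebpb at 0.31, Nupr1 at −0.05 and Ddit4 at 0.18 for both factors.

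Some small heat shock protein genes were lower with FGF2, and others were not. Hspb7 had 922 with both factors and 1007 with FGF2, against 1566 with IL-17A and 1863 untreated. Hspb6 had 333 and 303, against 557 and 582, and Hspb2 250 and 233, against 408 and 382. These 3 muscle-enriched genes did not overlap between arrays with and without FGF2. Nor did Dnajb5, an HSP40, with 153 and 147, against 223 and 273. Hspb8, in contrast, was not lower, with 1663 and 1447, against 1447 and 1444. Of all measured genes, 32.9% were lower in both array pairs for FGF2, and the share without overlap was not computed. Hspb2, Hspb6, Hspb7 and Dnajb5 were more than 1.5-fold lower with FGF2 than untreated, as was no other gene of the 19 in their list of HSP70, HSP40 and small heat shock protein genes. That list had medians of 0.00, −0.03 and 0.01, and its brightest genes Cryab, Dnaja2 and Serpinh1 had 0.00, 0.22 and −0.07 for both factors. The other Dnajb5 probe set above the floor gave a log2 ratio of −0.24 with FGF2. Hspb8 and the stress-inducible HSP70 genes Hspa1a and Hspa1b were chosen for naming after their values were seen. Hspa1a was at −0.26 with both factors, −0.30 with FGF2 and 0.28 with IL-17A, and Hspa1b at −0.12, 0.23 and 0.03. The pair are near-identical copies, so their signals may not be separate. The fibroblast marker sums were lower on the arrays with FGF2, though the marker Dcn was higher there than untreated, and their part was not tested. Among 14 cochaperones of HSP90 and HSP70 the medians were 0.06, 0.04 and 0.08, with Sugt1, Hsbp1 and Bag1 within 0.16 of untreated on every array. Fkbp5, a glucocorticoid-induced HSP90 cochaperone, was 1.52-fold lower with both factors (2745, against 4183 untreated), with 3473 for FGF2 and 3607 for IL-17A.

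**Figure D5:**
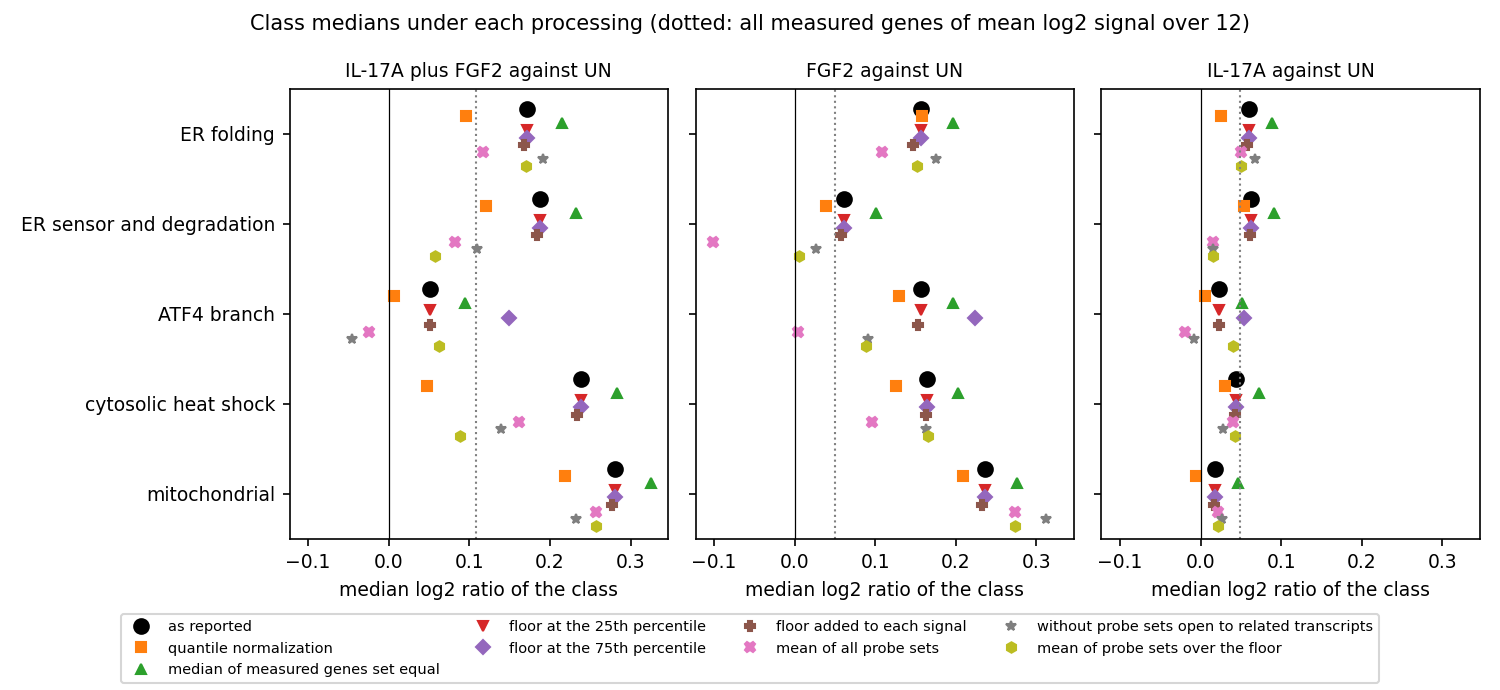
Median log2 ratio of each class of members (rows) to the untreated array (x axis) with IL-17A plus FGF2 (left), FGF2 (middle) and IL-17A (right) under each processing (symbols); the dotted line is the median of all measured genes of mean log2 signal over 12. With FGF2 the ER folding, cytosolic and mitochondrial medians stay above 0 under every processing drawn, and with both factors the cytosolic median is 0.05 under quantile normalization, against 0.24 as reported; the dotted line holds for the reported processing only.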

How the data were processed

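Total RNA of mouse primary intestinal epithelial cells was amplified, labelled and hybridised to 4 arrays, 1 per group, per the labels' protocols. The deposited values are log2 signals for 45101 probe sets, which the authors summarised with MAS5, per the submitters' processing notes, and the version is not given in the sources used here. After taking the antilog, the 2% trimmed mean was 500 for each array. MAS5 subtracts mismatch signal, so dim values are noisy.

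Leaving out 64 control probe sets, 34945 had 1 symbol in the platform annotation, 932 had several and 9160 none. The brightest of a gene's probe sets (highest mean log2) stood for it, and signals under the floor of 89.8 were raised to it. Log2 ratios were taken between arrays in 5 comparisons. The yardstick SD is the SD of the interaction divided by the square root of 2. Genes are named by a written rule: all members, wider-list genes at least 1.5-fold from untreated, and the 3 brightest of each list. The members and lists were chosen with earlier results of these data known. In the wider lists, 6 older symbols were updated through the RefSeq gene table. Alternatives were 2 scalings, 3 floors, 2 probe set rules, other fold thresholds, and a mean over probe sets above the floor, chosen after seeing the data. The functions were tested on simulated data. Python 3.11.15, numpy 2.4.6 and pandas 2.3.3 were used.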

Additional observations from a re-analysis of the deposited data

Results flagged for a closer look

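Hyou1 was singled out because its 2 readings of each factor went opposite ways and its interaction, 0.67 on the log2 scale, was past the 99th percentile of measured genes of like signal (0.56). For FGF2 the log2 ratio was 0.54 in the presence of IL-17A and −0.12 alone, and for IL-17A it was 0.10 in the presence of FGF2 and −0.56 alone. The difference was not tested, since each value comes from 1 array. All of it goes with the low signal on the IL-17A array (1468). The dimmer Hyou1 probe set that was above the floor on all arrays had 485 with both factors, 541 with FGF2, 448 with IL-17A and 464 untreated.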

How the results depend on the processing

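A median counts as moved here where it shifted by more than the yardstick SD, and a count where it left 1.5 times its reported value. Changing the floor or setting medians equal moved no class median and no count of members past 1.5-fold. Quantile normalization lowered the cytosolic median for both factors against untreated to 0.048 (reported 0.24). Within the yardstick, but by over 1.5 times, it also lowered the ER folding median for both factors to 0.096 (reported 0.17), the median of all members to 0.076 (0.19), and that against IL-17A to 0.023 (0.08). For IL-17A against untreated the median of all members was 0.019 (0.05). Averaging all probe sets gave FGF2 medians of −0.10 for sensors and degradation and 0.0047 for the ATF4 branch (reported 0.06 and 0.16). It gave 1, 3 and 2 members at least 1.5-fold higher with IL-17A, FGF2 and both factors against untreated, 1 lower with both factors, and 0 and 2 higher with both factors against IL-17A and against FGF2. It left 0 members past the interaction percentile and reversed Hyou1's interaction (−0.040) and the FGF2 ratios of Ern1 (−0.26) and Hspa4 (−0.44). Leaving out probe sets that by design class can detect more than 1 transcript kept 32 members, without Hsph1. So 0 were at 1.5-fold with FGF2, with both factors, and with both against IL-17A. The cytosolic median for both factors was then 0.14, the mitochondrial median against FGF2 −0.078, the members above FGF2 12, and Hyou1's interaction −0.11. A mean over probe sets above the floor, chosen after seeing the data, gave medians for both factors of 0.057 for sensors and 0.088 for cytosolic genes, 0 members at 1.5-fold against IL-17A and 0 past the interaction percentile. Counting from 25% higher or 20% lower gave 2 higher and 2 lower with IL-17A, 4 higher with FGF2, 5 with both factors and 2 against IL-17A, and a 2-fold threshold gave 0 in each. Beyond what the construction of each alternative shows, the cause was not tested. No paired analysis was possible because each group has 1 array.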
